A study of Rattus norvegicus with 15 samples.

Results

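The surfactant and alveolar type 2 genes of rat lung were Sftpa1, Sftpb, Sftpc, Sftpd, Abca3, Lamp3, Napsa, Slc34a2, Lpcat1 and Nkx2-1. They were taken by symbol, from a list drawn up with earlier results of these data known, and all 10 had 1 row each among the 22250 genes of the deposited table. Lung RNA of wild-type (WT) rats was sequenced in 15 libraries, 5 in each of 3 groups. The WDD group had been given Wendan Decoction, a herbal formula of Chinese medicine, by gavage, on top of LPS/Smoke through the trachea, where LPS is lipopolysaccharide from the outer membrane of bacteria. The COPD group, a model of chronic obstructive pulmonary disease, had received LPS/Smoke through the trachea without the decoction. The control group held normal rats. Doses, durations, strain and age were not given in the sources used here, and neither was whether each library came from a separate rat. The p-values therefore measure the spread between these samples only, which may be technical in part.

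Alveolar type 2 cells make pulmonary surfactant, the film of phospholipid and protein that lowers surface tension in the alveoli and keeps them open at the end of expiration. Its lipids and the hydrophobic proteins SP-B and SP-C are packed in lamellar bodies, storage organelles derived from lysosomes, and released by exocytosis. The collectins SP-A and SP-D bind microbial sugars, lipopolysaccharide among them, and serve in the innate defence of the air spaces. The transcription factor NKX2-1 directs the surfactant programme in these cells.

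Levels are in FPKM, which relates a gene's fragments to its transcript length and to the total of the library. Tests used limma on log2(FPKM + 1) over 13172 genes, those reaching 1 FPKM in 5 or more libraries, and a difference was called where the adjusted p was under 0.05. All 10 members passed this filter. Whole libraries differed between the groups. Mitochondrially encoded genes held 19.1 to 26.5% of the FPKM sum in WDD, 33.7 to 65.0% in COPD and 5.19 to 9.62% in control libraries. The median of 18 long housekeeping transcripts changed by -1.56 (log2 fold change) in COPD against control, and that of 22 short ones by 0.44. For WDD against control the values were -0.94 and 0.87. The symbol Cox6b1 occurs more than once among the 22 short ones. Over all genes tested, log2 fold changes had a median of -0.81 for COPD against control, 0.54 for WDD against COPD and -0.23 for WDD against control. COPD 1 had the largest mitochondrial share and was the lowest COPD library in 8 of the 10 members. COPD 5 was the least like the others of its group, with correlations across genes of 0.885 to 0.898, against 0.961 to 0.980 among the other COPD libraries. Without COPD 1 and COPD 5, the members called numbered 8 lower in COPD against control, 7 higher in WDD against COPD and 5 lower in WDD against control. Of all 13172 genes, 8424, 6877 and 5450 were called in these directions without the same 2 libraries. WDD 4 and WDD 5 were the most alike pair of libraries in their group, with a correlation across genes of 0.992, against 0.969 to 0.982 for the other pairs. The part of these library differences in the results below was not tested. In whole lung, fewer alveolar type 2 cells and less RNA per cell cannot be told apart.

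In COPD lungs 8 of the 10 members fell against controls and none rose, while the lamellar body genes Lamp3 and Napsa did not pass. Of all genes tested 66.4% were called lower and 8.23% higher in this comparison, so the count of members is close to the background. The sizes were larger: the median log2 fold change was -1.82 over the members and -0.81 over all genes, and 8 members lay below the median of all genes. In 7 members every COPD library lay below every control library, as did 52.3% of all genes. In WDD lungs 7 members were higher than in COPD lungs and none lower, beside 57.1% and 6.63% of all genes, and in these same 7 every WDD library lay above every COPD library, against 40.6% of all genes. The median was 1.49 over the members and 0.54 over all genes. Against controls, 4 members were lower in WDD lungs and none higher, beside 31.0% and 6.35% of all genes, and 6 did not pass. After median-of-ratios scaling 6 members were lower and 2 higher in COPD against control, beside 4256 and 3977 of all 13172 genes. With that scaling 7 members were higher and 2 lower in WDD against COPD, beside 3073 and 2819 genes. In WDD against control 3 members were then lower and none higher, beside 2224 and 2100 genes. The comparisons share libraries and are given side by side.

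**Figure D1:**
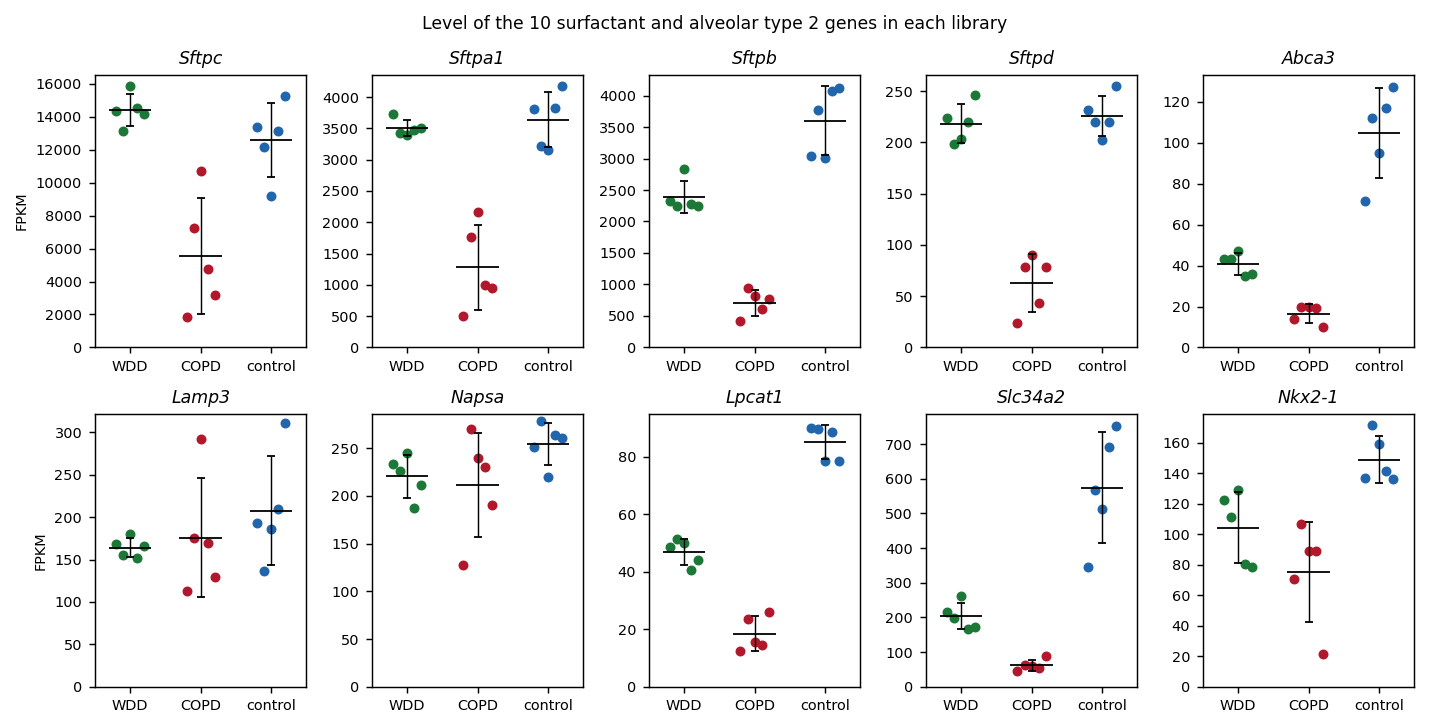
FPKM of each of the 10 genes in each library (points), with the mean and SD of the 5 libraries of a group (line and bar). Sftpc, Sftpa1 and Sftpd in WDD libraries lie in the range of controls or near it, Sftpb, Abca3, Slc34a2 and Lpcat1 lie between COPD and control libraries, and Lamp3 and Napsa overlap in all groups.

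Of the surfactant proteins, Sftpc, which encodes the hydrophobic protein SP-C made only in alveolar type 2 cells, was the most abundant (ENSRNOG00000011177). It stood at 14369.7, 13144, 15851, 14550.3 and 14144 FPKM in WDD libraries, at 1842, 7219, 10695, 4764 and 3192 FPKM in COPD libraries, and at 13361, 12127, 9156, 13121 and 15268 FPKM in control libraries. The COPD libraries were widely spread, and COPD 3 lay above control 3, so these groups overlapped. By group mean Sftpc held rank 7 of all genes in WDD, rank 12 in COPD and rank 3 in control lungs. It fell in COPD lungs by 1.42 ± 0.36 (SE) on the log2 scale against controls (adjusted p = 0.00213). After median-of-ratios scaling the log2 fold change was -0.48 and the call ended (adjusted p = 0.189, the highest of 29 alternatives, which began at 7.31e-07). WDD lungs were higher than COPD lungs by 1.63 ± 0.36 (adjusted p = 0.00110). Between WDD and control lungs the difference was 0.21, with a 95% confidence interval of -0.56 to 0.98 (adjusted p = 0.690), but it was -1.11 (adjusted p = 0.00782) under quantile normalisation, with adjusted p between 0.00782 and 0.899 over all alternatives.

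Sftpa1 encodes SP-A, the most abundant surfactant collectin (ENSRNOG00000011438). It had 3727, 3428, 3400.1, 3470.2 and 3504 FPKM in WDD libraries, against 508, 1768, 2172, 999 and 949 FPKM in COPD libraries. Control libraries had 3813, 3220.4, 3156, 3831 and 4177 FPKM. The 5 WDD libraries lay within the range of controls and all COPD libraries below both groups. COPD lungs differed from controls by -1.68 ± 0.30 (adjusted p = 7.96e-05) and WDD from COPD lungs by 1.63 ± 0.30 (adjusted p = 0.000203). Between WDD and control lungs the difference was -0.046, with an interval of -0.67 to 0.58 (adjusted p = 0.922), but it was -0.92 (adjusted p = 0.00617) under quantile normalisation and 0.24 after median-of-ratios scaling.

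Sftpd, the gene of the collectin SP-D, was expressed at a far lower level (ENSRNOG00000056001). Its values were 223, 198, 203, 220.3 and 246 FPKM in WDD libraries, 23.9, 78.8, 90.6, 43.0 and 78.7 FPKM in COPD libraries, and 231, 220.0, 203, 219.8 and 255 FPKM in control libraries. WDD and control libraries overlapped, and the COPD libraries lay apart below both. For Sftpd the log2 fold change was -1.97 ± 0.27 in COPD against control lungs (adjusted p = 5.80e-06) and 1.92 ± 0.27 in WDD against COPD lungs (adjusted p = 2.17e-05). The difference between WDD and control lungs was -0.048, with an interval of -0.62 to 0.52 (adjusted p = 0.911).

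Sftpb encodes SP-B, the hydrophobic protein without which lamellar bodies do not form properly and newborns cannot breathe air (ENSRNOG00000010761). Its level was 2331, 2250.1, 2834, 2272 and 2251 FPKM in WDD libraries, against 415, 951, 816, 614 and 764 FPKM in COPD libraries. In controls it was 3034, 3773, 3002, 4074 and 4114 FPKM. The 3 groups did not overlap: every WDD library lay above every COPD library and below every control library. COPD lungs differed from controls by -2.38 ± 0.21 (adjusted p = 5.97e-08), and WDD lungs were higher than COPD lungs by 1.79 ± 0.21 (adjusted p = 3.99e-06). Against controls the log2 fold change of WDD lungs was -0.58 ± 0.21 (adjusted p = 0.0367). This last call ended after median-of-ratios scaling (-0.30, adjusted p = 0.202) and without a filter on low values (adjusted p = 0.0731), and with WDD 4 and WDD 5 averaged (adjusted p = 0.0745). It also ended without WDD 1, 2, 4 or 5 and without control 2, 4 or 5 in turn (adjusted p between 0.0647 and 0.0873). Over all alternatives the adjusted p ran between 0.000410 and 0.202.

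The proportions of the surfactant protein genes are not moved by a single scaling factor for a library. The libraries also differed between long and short transcripts, which is not a single factor. The log2 median of the long housekeeping list minus that of the short one averaged -2.43 in WDD, -2.62 in COPD and -0.61 in control libraries. The part of this difference in the shares was not tested. Sftpc made up 70.2% ± 0.861 of the FPKM sum of Sftpa1, Sftpb, Sftpc and Sftpd in WDD, 70.8% ± 5.67 in COPD and 62.6% ± 2.43 in control libraries (mean ± SD, n = 5). The share of Sftpb was 11.6% ± 0.679 in WDD, 11.04% ± 4.0 in COPD and 18.0% ± 2.0 in control libraries. Per library it ran between 11.1 and 12.7% in WDD and between 14.8 and 19.5% in control libraries, without overlap, while COPD libraries spread between 5.92 and 15.3%. Sftpa1 held 17.1% ± 1.15 in WDD, 17.3% ± 1.53 in COPD and 18.2% ± 1.38 in control libraries, which overlapped. WDD and COPD lungs thus had a lower mean share of Sftpb than control lungs, and a higher one of Sftpc. These shares were described and not tested. The 10 members together held 3.80 to 4.68% of the FPKM sum without mitochondrial genes in WDD, 1.14 to 3.23% in COPD and 3.74 to 5.49% in control libraries.

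**Figure D2:**
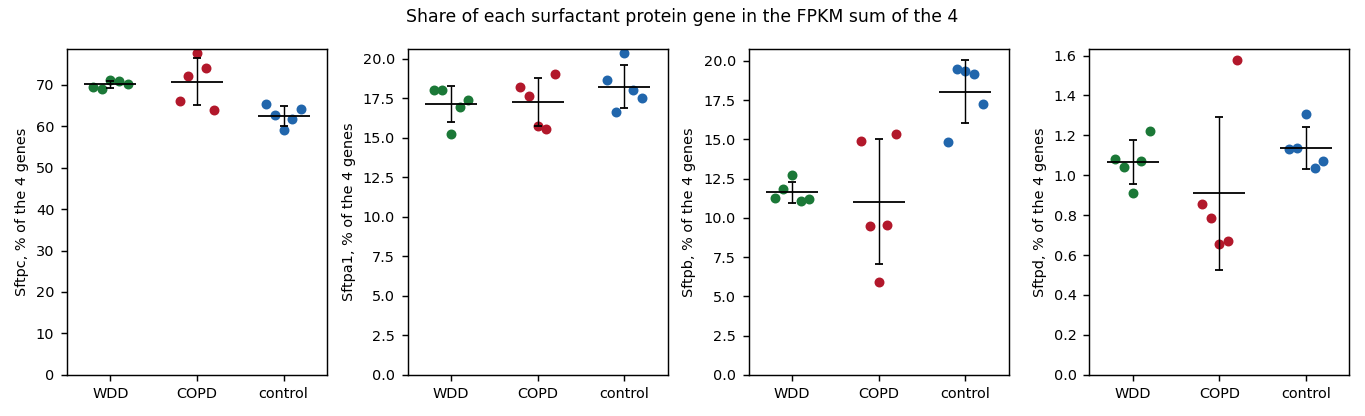
Percent of the FPKM sum of the 4 surfactant protein genes held by each, per library (points), with the mean and SD of the 5 libraries of a group. The share of Sftpb lies between 11.1 and 12.7% in WDD libraries, below the 14.8 to 19.5% of control libraries, and COPD libraries spread over 5.92 to 15.3%.

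Abca3 and Lpcat1, genes of surfactant lipid, and the transporter gene Slc34a2 changed in all 3 comparisons. Abca3 encodes the transporter that moves phospholipid into lamellar bodies (ENSRNOG00000050057). It had 43.0, 43.1, 47.2, 35.0 and 35.8 FPKM in WDD libraries, 13.7, 19.6, 19.96, 19.5 and 10.1 FPKM in COPD libraries, and 71.5, 112, 95.2, 117 and 127 FPKM in control libraries. The mean in COPD lungs was 15.8% of that of controls, and the mean in WDD lungs was 39.0% of it. The groups did not overlap. The log2 fold change was -2.60 ± 0.19 in COPD against control lungs (adjusted p = 1.29e-08), 1.28 ± 0.19 in WDD against COPD lungs (adjusted p = 4.33e-05) and -1.32 ± 0.19 in WDD against control lungs (adjusted p = 0.000116). Control 1 was the lowest control library.

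Lpcat1, the acyltransferase that makes dipalmitoylphosphatidylcholine, the main surface-active lipid, followed the same order (ENSRNOG00000017930). WDD libraries had 48.4, 51.4, 49.8, 40.6 and 44.2 FPKM, COPD libraries 12.4, 23.7, 15.7, 14.6 and 26.0 FPKM, and control libraries 89.9, 89.6, 78.6, 88.6 and 78.6 FPKM. Again no library of one group reached the range of another. COPD lungs differed from controls by -2.20 ± 0.17 (adjusted p = 1.95e-08), WDD from COPD lungs by 1.35 ± 0.17 (adjusted p = 8.92e-06), and WDD from control lungs by -0.85 ± 0.17 (adjusted p = 0.00118).

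Slc34a2, a sodium-dependent phosphate cotransporter in the apical membrane of alveolar type 2 cells, had the largest fall of the 10 genes (ENSRNOG00000004626). Its FPKM was 217, 198, 262, 167 and 174 in WDD libraries, against 46.4, 62.2, 59.3, 53.0 and 87.5 in COPD libraries. Control libraries had 346, 568, 513, 693 and 752. The mean of COPD lungs was 10.7% and that of WDD lungs 35.5% of the control mean, and the groups did not overlap. The log2 fold change was -3.18 ± 0.21 for COPD against control (adjusted p = 5.76e-09), 1.72 ± 0.21 for WDD against COPD (adjusted p = 6.98e-06) and -1.46 ± 0.21 for WDD against control (adjusted p = 0.000108).

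Abca3, Lpcat1 and Slc34a2 kept their direction and call in all 3 comparisons under each of the 29 alternatives, scalings included. Beside them, 18 of 18 long housekeeping transcripts were lower in COPD than in control lungs, 12 of 18 were higher in WDD than in COPD lungs, and 16 of 18 were lower in WDD than in control lungs. Of all genes 66.4%, 57.1% and 31.0% were called in these directions. In WDD against COPD the long list had a median of 0.56, close to the 0.54 of all genes. Of 22 short housekeeping transcripts, 22 were higher in WDD than in control lungs, and the symbol Cox6b1 occurs more than once among them. Transcript lengths of the members were not used here, and the part of transcript length in these results was not tested.

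**Figure D3:**
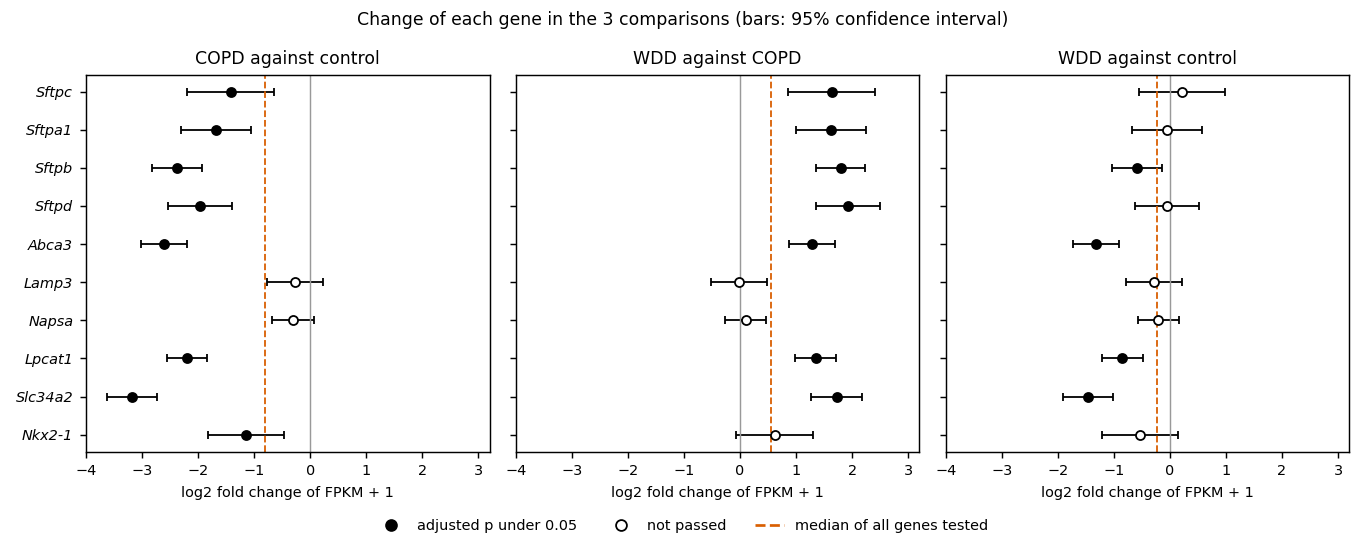
Log2 fold change of FPKM + 1 of each gene in the 3 comparisons, with its 95% confidence interval; filled points passed an adjusted p of 0.05 and the dashed line is the median of all 13172 genes tested. In COPD against control, 8 genes lie below that median and Lamp3 and Napsa above it, though after median-of-ratios scaling Lamp3 and Napsa turned to 0.66 and 0.63.

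The lamellar body genes Lamp3 and Napsa stood apart from the other members. Lamp3 encodes a glycoprotein of the lamellar body membrane, also found in mature dendritic cells (ENSRNOG00000022792). It had 168, 155, 180.1, 151 and 165 FPKM in WDD libraries, 112, 176, 292, 169.6 and 129 FPKM in COPD libraries, and 194, 136, 186, 210.0 and 311 FPKM in control libraries. All 3 groups overlapped. The difference was -0.27 in COPD against control lungs, with an interval of -0.76 to 0.23 (adjusted p = 0.309), and -0.021 in WDD against COPD lungs, with an interval of -0.52 to 0.47 (adjusted p = 0.943). Between WDD and control lungs it was -0.29, with an interval of -0.78 to 0.21 (adjusted p = 0.359).

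Napsa encodes napsin A, an aspartic protease that takes part in the maturation of SP-B (ENSRNOG00000019854). Its values were 233, 226, 245, 187 and 212 FPKM in WDD libraries, 128, 270.1, 239, 230.4 and 191 FPKM in COPD libraries, and 251, 278, 219.7, 264 and 261 FPKM in control libraries. COPD 1 was the lowest library, and the groups overlapped. COPD differed from control lungs by -0.31, with an interval of -0.67 to 0.06 (adjusted p = 0.121). WDD differed from COPD lungs by 0.10, with an interval of -0.27 to 0.46 (adjusted p = 0.637), and from control lungs by -0.21, with an interval of -0.58 to 0.16 (adjusted p = 0.372).

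For these genes the call depended on the scaling. After median-of-ratios scaling, which brings the median of all genes to -0.05 in COPD against control, Lamp3 was higher in COPD lungs by 0.66 (adjusted p = 0.00879) and Napsa by 0.63 (adjusted p = 0.000357). With the FPKM sum of every library made equal they were lower, with log2 fold changes of -0.83 (adjusted p = 0.00343) and -0.87 (adjusted p = 0.000321). Lamp3 was also called lower without COPD 3 (-0.47, adjusted p = 0.0476), and Napsa without COPD 2 (-0.40, adjusted p = 0.0416) and under quantile normalisation (-0.32, adjusted p = 0.0488). Leaving out 1 library at a time, the values ran between -0.47 and -0.11 for Lamp3, the smallest in size without control 5, and between -0.40 and -0.14 for Napsa, the smallest without COPD 1. Without COPD 1 and COPD 5 they were 0.040 and -0.045. Over the 29 alternatives the adjusted p of this comparison ran between 0.00343 and 0.901 for Lamp3 and between 0.000321 and 0.733 for Napsa. Relative to the median of all genes tested, both lay higher in COPD lungs, by 0.55 and 0.51, and lower in WDD against COPD lungs, by -0.56 and -0.45. Under quantile normalisation both lay below the median of all genes in COPD against control.

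**Figure D4:**
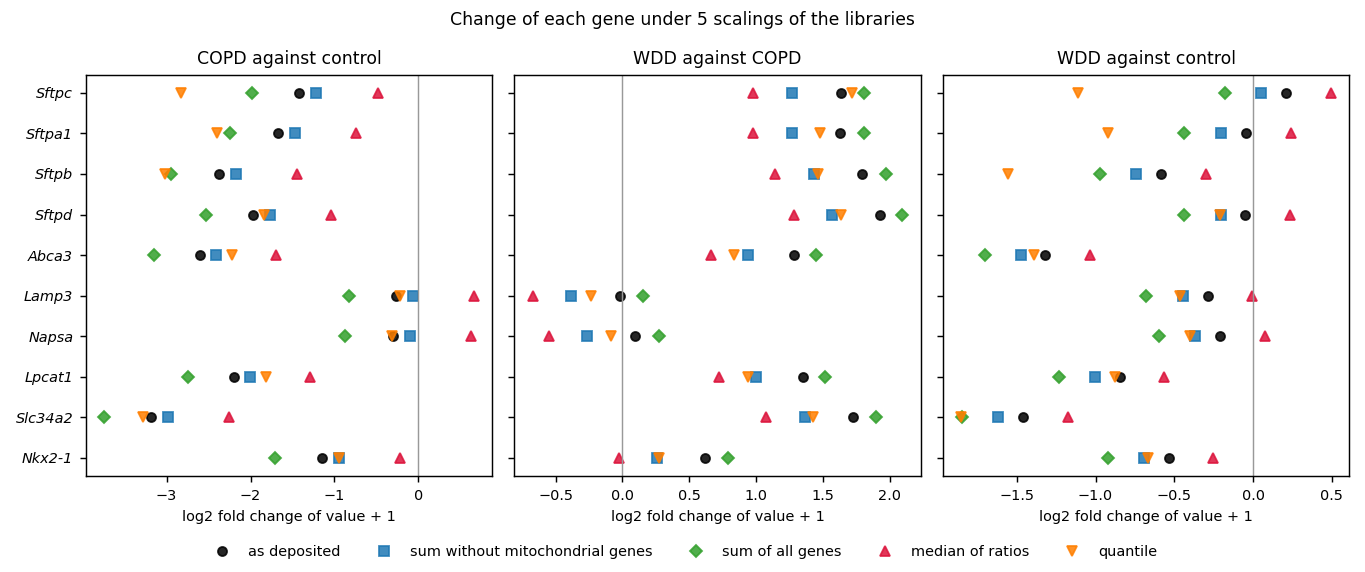
Log2 fold change of each gene under the deposited values and 4 other scalings of the libraries. Sftpa1, Sftpb, Sftpd, Abca3, Lpcat1 and Slc34a2 stay on one side of 0 in COPD against control and in WDD against COPD, whereas Lamp3 and Napsa turn to 0.66 and 0.63 in COPD against control after median-of-ratios scaling.

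Nkx2-1 encodes the homeodomain transcription factor of the lung and thyroid that binds promoters of surfactant protein genes (ENSRNOG00000008644). It had 122, 111, 129, 80.5 and 78.7 FPKM in WDD libraries, 70.8, 106, 89.0, 88.9 and 21.2 FPKM in COPD libraries, and 136, 171, 159, 142 and 136 FPKM in control libraries. All control libraries lay above those of both other groups. WDD 4 and WDD 5 lay below the other WDD libraries, and COPD 5 was the lowest of all. Nkx2-1 fell in COPD lungs, with a log2 fold change of -1.15 ± 0.32 (adjusted p = 0.00404). Without COPD 5 the value was -0.75 (adjusted p = 0.000637), and after median-of-ratios scaling it was -0.22 and not called (adjusted p = 0.514), with adjusted p between 7.43e-05 and 0.514 over all alternatives.

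In WDD against COPD lungs Nkx2-1 differed by 0.61, with an interval of -0.07 to 1.30 (adjusted p = 0.104). Against controls the difference was -0.53, with an interval of -1.21 to 0.15 (adjusted p = 0.210), although no WDD library reached the lowest control. Of all genes, 31.4% had every WDD library below every control library. The adjusted p reached 0.0469 in WDD against COPD without COPD 2 (0.78) and 0.0337 with the FPKM sums made equal (0.79), whereas without COPD 5 the difference was 0.21 (adjusted p = 0.261) and after median-of-ratios scaling -0.028. The adjusted p ran between 0.0337 and 0.947 over all alternatives. In WDD against control the value passed when COPD 5 was left out (adjusted p = 0.0107), when COPD 1 and COPD 5 were left out together (adjusted p = 0.00561) and when only the 2 groups were fitted (adjusted p = 0.00809). It passed with library weights (-0.55, adjusted p = 0.00327) and with the FPKM sums made equal (-0.92, adjusted p = 0.0186) as well. Over all alternatives the adjusted p of this comparison ran between 0.00327 and 0.539.

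Promoter windows of 250 bases before to 50 after the gene start were taken from RefSeq (build GRCr8) and were found for 7 of the 10 members. They were searched on both strands for CTCAAG and CAAGTG, words bound by NKX2-1 that can overlap by 4 bases, and for TGTTTNC, a word bound by FOXA factors. An NKX2-1 word was present in 4 of these 7 windows, those of Sftpa1, Sftpb, Lamp3 and Nkx2-1, against 27.0% of 33469 windows of the same length. The FOXA word was present in 2, those of Sftpb and Lamp3, against 21.1% of all windows. Sftpb and Sftpa1, which fell in COPD lungs, and Lamp3, which did not pass, are shown 5′ to 3′ on the strand of the gene, with the NKX2-1 words in capitals. All 3 genes lie on the plus strand, at chr4:105917338-105917637, chr16:17042014-17042313 and chr11:94697772-94698071.
Sftpb: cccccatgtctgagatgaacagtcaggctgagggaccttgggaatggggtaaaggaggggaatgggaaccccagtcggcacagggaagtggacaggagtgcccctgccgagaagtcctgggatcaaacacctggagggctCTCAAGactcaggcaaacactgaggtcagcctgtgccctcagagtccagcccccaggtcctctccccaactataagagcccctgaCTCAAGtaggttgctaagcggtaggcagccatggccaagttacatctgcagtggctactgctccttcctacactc
Sftpa1: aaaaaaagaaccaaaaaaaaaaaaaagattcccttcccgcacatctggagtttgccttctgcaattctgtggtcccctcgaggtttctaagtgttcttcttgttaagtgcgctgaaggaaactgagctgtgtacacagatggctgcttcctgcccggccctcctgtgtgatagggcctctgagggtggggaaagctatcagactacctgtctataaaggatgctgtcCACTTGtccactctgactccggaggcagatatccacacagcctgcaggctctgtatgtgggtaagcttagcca
Lamp3: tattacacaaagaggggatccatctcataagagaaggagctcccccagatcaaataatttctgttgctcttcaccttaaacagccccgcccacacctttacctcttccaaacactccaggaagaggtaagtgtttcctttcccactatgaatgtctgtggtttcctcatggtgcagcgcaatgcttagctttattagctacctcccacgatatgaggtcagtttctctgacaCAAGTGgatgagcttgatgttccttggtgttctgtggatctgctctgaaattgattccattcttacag
The Sftpb window held CTCAAG at positions -110 to -105 and -25 to -20 from the start, the Sftpa1 window the reverse complement of CAAGTG at -23 to -18, and the Lamp3 window CAAGTG at -18 to -13. Words were thus present both in members that fell and in one that did not pass. A match to these letters is a description of the sequence and not a site in use.

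**Figure D5:**
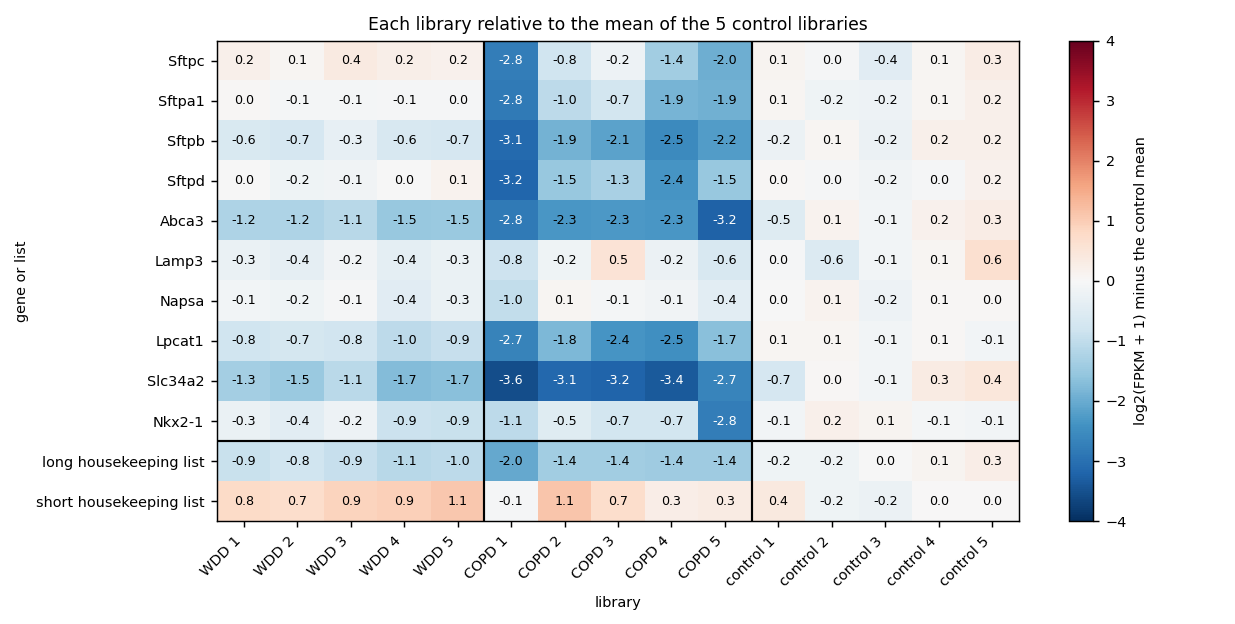
Difference of log2(FPKM + 1) from the mean of the 5 control libraries, for each library (columns), each of the 10 genes and the medians of the long and short housekeeping lists (rows). COPD 1 is the lowest COPD library in 8 genes, COPD 5 in Abca3 and Nkx2-1, and the long housekeeping list is lower in all WDD and COPD libraries than in each control library.

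The members did not move as a block. Measured by the root mean square difference of their log2 profiles over the 15 libraries, each centred on its mean, Sftpa1 and Sftpc were the most alike members (0.20), followed by Sftpa1 with Sftpd (0.26), Sftpb with Lpcat1 (0.28) and Lamp3 with Napsa (0.31). Lamp3 and Slc34a2 were the least alike (1.27). The same measure was applied to tested non-members with an unduplicated symbol, leaving out placeholder symbols such as those starting with LOC or RGD. Among these the closest to Sftpa1 was Pon3 (0.14), to Sftpb Slc44a3 (0.16), to Sftpd Tspan13 (0.16) and to Abca3 Igf2r (0.16). The closest to Slc34a2 was Mmp15 (0.17), to Lpcat1 Maco1 (0.18), to Napsa Ciz1 (0.14), to Lamp3 Dbt (0.21) and to Nkx2-1 Map4k2 (0.12). Pgrmc1 was the closest to Sftpc (0.25). Second in likeness were Pgrmc1 for Sftpa1 (0.18), Plbd2 for Sftpb (0.18), Pon3 for Sftpc (0.25) and Cd74 for Sftpd (0.18). For Abca3 it was Nav2 (0.17), for Slc34a2 Neo1 (0.22), for Lpcat1 Nomo1 (0.19), for Lamp3 Usp38 (0.24), for Napsa Ppp2r5a (0.14) and for Nkx2-1 Pld2 (0.18).

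Among other markers of alveolar type 2 cells, 11 of 13 listed genes were measured. Counts of this and the next 4 lists on the deposited values are to be read beside the shares of all genes called. In COPD against control 66.4% were lower and 8.23% higher, in WDD against COPD 57.1% higher and 6.63% lower, and in WDD against control 31.0% lower and 6.35% higher. Counts after median-of-ratios scaling have another background. With that scaling 4256 of 13172 genes were lower and 3977 higher in COPD against control. In WDD against COPD 3073 genes were then higher and 2819 lower, and in WDD against control 2224 lower and 2100 higher. Of the 11 markers 7 fell in COPD against control lungs, a share close to that of all genes, 1 rose and 3 did not pass. Their median was -1.17 beside -0.81 for all genes, and after median-of-ratios scaling 5 fell and 4 rose. Egfl6, a secreted protein with EGF repeats, averaged 33.6 ± 1.64 FPKM in WDD, 4.90 ± 3.38 FPKM in COPD and 41.0 ± 8.24 FPKM in control lungs, log2 fold changes of -3.06 ± 0.34 for COPD against control and 2.80 ± 0.34 for WDD against COPD. Etv5, a transcription factor needed for alveolar type 2 identity in mice, fell by 2.37 ± 0.27, the tight junction gene Cldn3 fell by 2.20 ± 0.26 and Lgi3 fell by 2.11 ± 0.26 in COPD lungs. Fabp5, a fatty acid binding protein, rose by 1.36 ± 0.32. In WDD against COPD lungs 6 were higher and none lower, or under median-of-ratios scaling 5 higher and 3 lower. Cldn3, Lgi3 and Lyz2, a lysozyme shared with macrophages, were higher by 1.72 ± 0.26, 1.67 ± 0.26 and 2.10 ± 0.35. In WDD against control lungs Etv5 and Lrrk2 were lower, with by -0.92 ± 0.27 and -0.83 ± 0.15, and the other 9 did not reach the threshold; after median-of-ratios scaling 1 was lower and 1 higher.

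Of 19 measured genes of surfactant lipid synthesis and transport, 17 fell in COPD lungs and none rose, or 13 fell and 1 rose after median-of-ratios scaling. Their median was -1.75, beside -0.81 for all genes, and in WDD against COPD it was 0.75, beside 0.54. Scd2, a fatty acid desaturase, averaged 89.1 ± 32.1 FPKM in WDD, 19.2 ± 8.98 FPKM in COPD and 180.3 ± 33.4 FPKM in control lungs and differed by -3.28 ± 0.29 between COPD and control lungs. Prdx6, which has phospholipase activity and serves surfactant turnover, fell by 2.10 ± 0.19. Lpin1, a phosphatidate phosphatase, fell by 2.05 ± 0.18, and Acaca, which makes malonyl-CoA for fatty acid synthesis, by 2.01 ± 0.16. Compared with COPD lungs, in WDD lungs 15 were higher and 2 lower, or under median-of-ratios scaling 6 higher and 2 lower. Pla2g1b, a secreted phospholipase, was higher by 2.73 ± 0.35, Scd2 by 2.22 ± 0.29, Prdx6 by 1.83 ± 0.19 and Abcg1 by 1.54 ± 0.25. Pgs1 was lower, at -0.44 ± 0.14. Against controls 11 remained lower in WDD lungs and 8 did not pass, or 5 lower after median-of-ratios scaling. Gpam, which starts glycerolipid synthesis, was at -1.76 ± 0.27, Acaca at -1.28 ± 0.16, Lpin1 at -1.10 ± 0.18 and Pcyt1a, the rate-limiting enzyme of phosphatidylcholine synthesis, at -0.72 ± 0.13.

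Of 16 transcription factors of lung epithelium 15 fell in COPD lungs and none rose, or 9 after median-of-ratios scaling, with a median of -1.30 beside -0.81 for all genes. In WDD against COPD the median was 0.67 beside 0.54. Foxa1, a partner of NKX2-1 at lung promoters, averaged 6.85 ± 0.952 FPKM in WDD, 2.41 ± 1.27 FPKM in COPD and 16.3 ± 2.76 FPKM in control lungs, with log2 fold changes of -2.39 ± 0.20 for COPD against control, 1.26 ± 0.20 for WDD against COPD and -1.13 ± 0.20 for WDD against control. Id2 fell by 1.40 ± 0.13 and Grhl2, a regulator of epithelial junctions, fell by 1.32 ± 0.16 in COPD lungs. Of these factors 11 were higher and none lower in WDD than in COPD lungs, or 3 after median-of-ratios scaling, and Hopx, at 1.44 ± 0.23, and Id2, at 0.95 ± 0.13, were among them. Against controls 10 were lower in WDD lungs, or 3 after median-of-ratios scaling. Nfib stood at -1.48 ± 0.25, Foxa2 at -0.76 ± 0.19 and the glucocorticoid receptor Nr3c1 at -0.61 ± 0.15.

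Genes of surfactant protein processing and secretion were less uniform. Of 18 measured, 11 fell and none rose in COPD lungs, with a median of -0.74 beside -0.81 for all genes, and after median-of-ratios scaling 5 fell and 7 rose. Adgrf5, a receptor that limits the surfactant pool in mice, averaged 140.3 ± 18.7 FPKM in WDD, 34.6 ± 13.1 FPKM in COPD and 242 ± 22.0 FPKM in control lungs and fell by 2.86 ± 0.23 in COPD lungs. Rab38, a small GTPase of lamellar body biogenesis, fell by 2.06 ± 0.19, Vamp2, a vesicle fusion protein, fell by 1.58 ± 0.13 and the ubiquitin ligase Nedd4l by 1.38 ± 0.16. Ctsh, a protease that processes SP-B and SP-C, had a log2 fold change of 0.05 ± 0.26 and did not pass (adjusted p = 0.874). Between WDD and COPD lungs 10 were higher and 1 lower, or under median-of-ratios scaling 4 higher and 7 lower. Adgrf5, Rab38 and Vamp2 were higher by 2.07 ± 0.23, 1.86 ± 0.19 and 1.31 ± 0.13. The lower one was P2ry2, the ATP receptor that triggers surfactant release, which averaged 3.31 ± 0.790 FPKM in WDD, 16.0 ± 4.22 FPKM in COPD and 11.3 ± 3.45 FPKM in control lungs. Its difference was -1.96 ± 0.21 for WDD against COPD lungs and -1.48 ± 0.21 for WDD against control lungs (adjusted p = 0.000104). Between WDD and control lungs 5 genes were lower and 1, Vamp8, higher, or 4 and 3 after median-of-ratios scaling.

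Of 10 measured genes of surfactant uptake and clearance by macrophages, 3 rose and 5 fell in COPD lungs, or 5 and 5 after median-of-ratios scaling, with a median of -0.80 beside -0.81 for all genes. The chains of the GM-CSF receptor, which alveolar macrophages need to clear surfactant, were among those that rose: Csf2rb by 2.20 ± 0.21 and Csf2ra by 1.21 ± 0.15, and the scavenger receptor Msr1 by 0.67 ± 0.23. Pparg fell by 1.55 ± 0.18 and the cholesterol transporter Abcg1 fell by 2.43 ± 0.25. In WDD against COPD lungs 4 were lower and 4 higher, or 6 lower and 3 higher after median-of-ratios scaling. Csf2rb averaged 4.70 ± 0.506 FPKM in WDD, 57.7 ± 18.7 FPKM in COPD and 11.4 ± 2.34 FPKM in control lungs, a difference of -3.30 ± 0.21 between WDD and COPD lungs. Csf2ra differed by -1.38 ± 0.15 and Msr1 by -1.80 ± 0.23, while Pparg was higher by 1.46 ± 0.18. Against controls 6 were lower in WDD lungs, or 5 after median-of-ratios scaling, among them Lrp1 at -1.26 ± 0.19, Msr1 at -1.13 ± 0.23, Csf2rb at -1.10 ± 0.21 and Bach2 at -0.87 ± 0.18. Msr1 and Bach2 were at low levels, with means of 1.00 and 0.91 FPKM in WDD and 3.46 and 2.55 FPKM in control lungs. Neutrophils and other leukocytes also carry GM-CSF receptors.

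Markers of several other cell types differed between the groups, and the summed fibroblast markers overlapped in all 3. Counts on the deposited values are to be read beside the shares of all genes called. These were 66.4% lower and 8.23% higher in COPD against control, and 57.1% higher and 6.63% lower in WDD against COPD. After median-of-ratios scaling 4256 of all 13172 genes were lower and 3977 higher in COPD against control. The summed FPKM of 10 markers of alveolar type 1 cells ran between 3048 and 4262 in WDD, 651 and 1838 in COPD and 3609 and 4868 in control libraries, and 10 of 10 fell in COPD against control lungs, or 9 after median-of-ratios scaling. Their median log2 fold change was -2.55, larger in size than the -1.82 of the members. In WDD against COPD lungs the alveolar type 1 median was 1.75, beside 1.49 for the members, and 10 of 10 were higher. For 8 genes of epithelia in general the sum ran between 645 and 775 in WDD, 135 and 397 in COPD and 723 and 799.4 in control libraries, and 7 fell, or 5 fell and 1 rose after median-of-ratios scaling. For 8 neutrophil genes it ran between 84.2 and 441 in WDD, 11529 and 43150.4 in COPD and 44.8 and 94.4 in control libraries, and 7 rose. For 10 macrophage genes it ran between 257 and 357 in WDD, 91.7 and 253 in COPD and 233 and 339.9 in control libraries. For 7 endothelial genes the sum ran between 749 and 1009.7 in WDD, 139 and 488 in COPD and 939 and 1542 in control libraries, and of 6 tested 5 fell in COPD lungs, with a median of -2.51 that is larger in size than the -1.82 of the members; after median-of-ratios scaling 4 fell. In WDD against COPD lungs the endothelial median was 2.06, and 5 were higher. For 6 ciliated cell genes the sum ran between 534 and 738 in WDD, 94.5 and 346 in COPD and 465 and 547 in control libraries, and of 5 tested 1 fell, or 1 fell and 1 rose after median-of-ratios scaling. For 6 genes of club and goblet cells it ran between 17075 and 38633 in WDD, 1941 and 14481 in COPD and 10947 and 17129.6 in control libraries, and of 5 tested 2 fell and 1 rose. For 6 fibroblast genes it ran between 322 and 438 in WDD, 264 and 472 in COPD and 300.2 and 411 in control libraries, and 2 fell and 1 rose, or 3 rose and none fell after median-of-ratios scaling. The endothelial gene Cldn5 was listed at 0 in all libraries. The defining markers of alveolar type 2, alveolar type 1, epithelial and neutrophil cells reached 1 FPKM in at least 1 library of each group, Siglec1 did not in COPD nor Marco in WDD libraries, and the macrophage gene Marco was listed at 0 in all control libraries. The part of these cells in the levels of the 10 genes was not tested.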

How the data were processed

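The authors deposited 1 table of FPKM values, 1 column for each library. The submitters' processing notes name cutadapt, HISAT2, StringTie and the build Rnor_6.0, with no versions. Neither the annotation release nor the use of strand is given in the sources used here, and per the labels' protocols, 1 ug of TRIzol-extracted total RNA went into NEBNext Ultra libraries. Groups and replicate numbers came from the sample titles, and the members and gene lists were chosen with earlier results of these data known.

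FPKM are not counts, so values were used as log2(FPKM + 1), which understates changes of low genes. The 13172 genes reaching 1 FPKM in 5 or more libraries were fitted over all 15 libraries with limma 3.58.1 in R 4.3.3 (empirical Bayes with a mean-variance trend), 2-sided, with Benjamini-Hochberg adjustment over all genes of a comparison. The fit was checked on simulated data. Read totals were not analysed, so no counting intervals are given; the smallest steps of low values put relative depth at 0.877 (COPD 4) to 1.11 (COPD 2), with control 2 as 1.

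All 10 members are named. Other named genes are up to 4 of lowest p per list and comparison, and the 2 tested non-members closest in profile to each member. Duplicated and placeholder symbols were left out of that search for close profiles. Fabp5, Ctsh, Pgs1, Sfn, Marco and Cldn5 were named after their values were seen. Alternatives were pseudocounts of 0.1 and 0.5, all genes kept, only genes averaging 5 FPKM or more, other scalings, other variance models, a replicate block and leaving out each library. Making the FPKM sums of the libraries equal, leaving out COPD 1 and COPD 5 together and averaging WDD 4 and WDD 5 were chosen after seeing the data. A planned description by protein length was not made. Figures were drawn with matplotlib 3.10.9 and tables made with pandas 2.3.3 (numpy 2.4.6, Python 3.11.15).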

Additional observations from a re-analysis of the deposited data

Results flagged for a closer look

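Among 51 sets of 5 libraries checked, 2 held a library far from the other 4, measured by its gap to the nearest library relative to the range of the group. Chance gives about 1 in 20. WDD 3 had 2834 FPKM of Sftpb, against 2250.1 to 2331 FPKM in the other WDD libraries. In COPD 5, Sftpd made up 1.58% of the FPKM sum of the surfactant protein genes, against 0.657 to 0.856% in the other COPD libraries. The cause of these gaps was not tested.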

How the results depend on the processing

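Of 30 member results, 16 kept direction and call under all 29 alternatives. Of 870 values, 13 lost a call, 18 gained one with the sign kept and 19 changed sign. Some of those that changed sign were called as well. After median-of-ratios scaling these were Lamp3 and Napsa in COPD against control and Napsa in WDD against COPD. Under quantile normalisation it was Sftpc in WDD against control. Leaving out 1 library at a time, members called lower in COPD against control numbered 8 to 9, called higher in WDD against COPD 7 to 8 and called lower in WDD against control 3 to 5. Of all 13172 genes the same fits called 8392 to 8983, 6814 to 7754 and 3451 to 4924 in these directions. After median-of-ratios scaling 2 members were called higher in COPD than in control and 2 lower in WDD than in COPD lungs (Lamp3 and Napsa). Beside them, 3977 and 2819 of all 13172 genes were called in these directions. Called lower in WDD against control were 7 members under quantile normalisation, beside 2338 of all 13172 genes. With the FPKM sums of the libraries made equal it was 7 members, beside 7580 genes. The cause of these moves was not tested.

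Signs changed as follows. COPD against control: Lamp3 0.66 and Napsa 0.63 (median of ratios), Lamp3 0.040 (without COPD 1 and COPD 5). WDD against COPD: Napsa -0.55 and Nkx2-1 -0.028 (median of ratios), Napsa -0.086 (quantile), -0.26 (sum without mitochondrial genes), -0.094 (library weights) and -0.16 (without COPD 1 and COPD 5), Lamp3 0.15 (equal FPKM sums). WDD against control: Napsa 0.074, Sftpa1 0.24 and Sftpd 0.23 (median of ratios), Sftpc -1.11 (quantile) and -0.18 (equal FPKM sums). Leaving out 1 library at a time, WDD against COPD ran between -0.16 and 0.18 for Lamp3 and between -0.072 and 0.196 for Napsa, and WDD against control between -0.096 and 0.0055 for Sftpa1. None of these results was called on the deposited values.

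No pairing by replicate number was evident. Of 15 same-numbered pairs 1, COPD 5 with control 5 (0.143), correlated above 0.1 in deviations from group means. Low correlations cannot exclude a pairing or a shared batch. With the replicate block 8 members were called lower in COPD against control, 7 higher in WDD against COPD and 3 lower in WDD against control. Of all 13172 genes 8701, 7327 and 3897 were called in these directions. The call of Sftpb in WDD against control ended (-0.58, adjusted p = 0.0532) and no other member's call changed. Of all genes, 1084 were higher and 8749 lower in COPD against control as deposited, 3977 and 4256 after median-of-ratios scaling. Without read totals the counting precision of single values is unknown.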

Other observations

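Of 7 measured genes linked with transitional alveolar epithelium, a state between alveolar type 2 and type 1 cells described after injury in mice, 2 rose and 4 fell in COPD against control lungs. Among all genes 8.23% were called higher and 66.4% lower in COPD against control, and 57.1% higher and 6.63% lower in WDD against COPD. On the deposited values the falls in COPD lungs and the higher values in WDD lungs are thus no more frequent than the background. Lcn2, which neutrophils also make, rose by 3.76 ± 0.89 and Sfn rose by 0.95 ± 0.30, whereas Krt19, Krt8, Itgb6 and Cldn4 fell by 3.12 ± 0.14, 1.71 ± 0.17, 1.72 ± 0.23 and 1.46 ± 0.23 (limma). In WDD against COPD lungs Lcn2 and Sfn were lower, at -4.08 ± 0.89 and -1.03 ± 0.30, and Krt19, Krt8, Cldn4 and Itgb6 were higher, at 2.42 ± 0.14, 1.77 ± 0.17, 1.02 ± 0.23 and 0.63 ± 0.23. After median-of-ratios scaling 2 of the 7 were higher and 4 lower in COPD against control, beside 3977 and 4256 of 13172 genes. With that scaling 2 of the 7 were higher and 2 lower in WDD against COPD, beside 3073 and 2819 genes.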
